A study of Mus musculus with 14 samples.

Results

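The genes described here are 39 liver genes of blood coagulation (21) and of the complement system (18), followed across mouse liver tumours in which regulators of the transcription factor NRF2 had been targeted. They were taken by gene symbol from both deposited tables, which hold 16821 and 16095 genes, and all 39 were found in each. The tumours are hepatocellular carcinomas driven by MYC, and all of them, the controls included, carry MYC and a Cas9 guide. The first table holds 3 tumours with a Cul3 guide (sgCul3), 3 with a Keap1 guide (sgKeap1) and, as controls, 4 with a GFP guide (sgGFP). In the second table, 2 tumours whose guide cuts at the NRF2 ETGE motif (sgNrf2, tumours A and B) stand beside 2 control libraries, A and B, given in the labels as repeats of the sgGFP tumours 2 and 4. The sgCul3 and sgKeap1 comparisons share the same sgGFP tumours, and the sgNrf2 comparison uses repeats of a pair of them. The labels give neither strain nor age, and they do not say whether the tumours of a group came from separate animals, so every p-value below measures only the spread between these tumours, which may be technical.

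Hepatocytes make and secrete most of the clotting and complement proteins of plasma. In coagulation, a chain of proteases activates thrombin, thrombin turns fibrinogen into fibrin, inhibitors restrain each protease, and plasmin dissolves the clot. In complement, the classical, lectin and alternative routes meet in the cleavage of C3, after which the terminal components assemble into a membrane pore. KEAP1 holds NRF2 by its ETGE motif and hands it to the ubiquitin ligase of CUL3, which marks it for destruction, and the study's design gives all 3 guides as ways of activating NRF2.

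Values are called normalised reads below. They are the authors' HTSeq gene counts scaled by DESeq size factors, with the 1 added throughout the first table taken off again. Within a group they are listed by tumour number or letter. Reads assigned to genes ran from 6333025 to 12008223 a library in the first table, while the second had 17819333 to 20848578. Keap1 had 462, 414 and 287 normalised reads in the sgKeap1 tumours and 599, 582, 707 and 721 in the sgGFP tumours, with no overlap (limma adjusted p = 0.048), although leaving out any sgGFP tumour, or sgKeap1 tumour 2 or 3, gave 0.068 to 0.16. Cul3 had 163, 426 and 676 in the sgCul3 tumours and 1372, 1247, 1202 and 935 in the sgGFP tumours, with an adjusted p of 0.051, against a threshold of 0.05. Nfe2l2, the gene of NRF2, had 1486 and 1615 in the sgNrf2 tumours and 1844 and 1397 in the controls, and gene counts do not show whether its ETGE motif was edited. Nqo1, a quinone reductase and known NRF2 target, was higher in every tumour of each guide group than in any of its controls.

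The labels give hepatocytes as the cell type, and all 9 hepatocyte markers, such as albumin, were detected in every library. Their summed level was 119313 to 315228 normalised reads in sgCul3, 163829 to 1216065 in sgKeap1 and 112617 to 347953 in sgGFP, and 319515 to 405609.8 in sgNrf2 against 441115 to 752596 in the controls. The top of the sgKeap1 range is tumour 2 alone, in which the 10 most abundant genes held 24.5% of the reads. Erythroid and neutrophil markers summed to less in every sgKeap1 and sgNrf2 tumour than in any of their controls, while sgCul3 overlapped with sgGFP. The 6 erythroid markers summed to 316 to 9011 in sgCul3, 1608 to 1759.5 in sgKeap1 and 4056 to 11385 in sgGFP, and to 751 to 1572 in sgNrf2 against 14149.6 to 14527 in the controls, with Slc4a1 and Epb42 at 0 in sgCul3 tumour 1. The 8 neutrophil markers summed to 127 to 2689 in sgCul3, 124 to 198 in sgKeap1 and 708 to 4951 in sgGFP, and to 125 to 525 in sgNrf2 against 4914 to 10536 in the controls. Mpo was at 0 in sgCul3 tumour 1 and sgNrf2 tumour A, Camp and Ngp in sgKeap1 tumour 1, and Ngp, Elane and Retnlg in sgKeap1 tumour 2. The 6 cholangiocyte markers summed to 267 to 1295 in sgCul3, 531 to 1690.1 in sgKeap1 and 86.8 to 335 in sgGFP, and to 535 to 4369 in sgNrf2 against 163 to 604 in the controls, with Epcam at 0 in control B. Of all tested genes, limma called 2.20%, 7.82% and 4.41% in sgCul3, sgKeap1 and sgNrf2, in either direction. In the same order it called 0, 6 and 3 of the neutrophil and 3, 4 and 6 of the erythroid markers lower. It called 1, 2 and 0 of the 5 tested cholangiocyte markers higher. Of the hepatocyte markers it called 0, 0 and 1 lower. Of the Kupffer cell, endothelial, fibroblast and platelet markers it called at most 2 of any list in any of these comparisons. Endothelial markers summed to 393 to 649 in sgCul3 against 711 to 1073 in sgGFP. In sgNrf2 they summed to 2549 to 2898 against 1269 to 1333 in the controls. Fibroblast markers summed there to 3064 to 4180 against 1926 to 2312, and platelet markers to 74.3 to 112 against 205 to 264. The other sums of the Kupffer cell, endothelial, fibroblast and platelet markers overlapped with those of the controls. T, NK and B cell markers were mostly too low to test. The part of these differences in the results below was not tested, and in whole tumour RNA fewer cells of a type and less RNA per cell cannot be told apart.

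In the sgGFP tumours the 3 chains of fibrinogen, the precursor of fibrin, led the members per kilobase of exon. Fgg averaged 7288 ± 2297 normalised reads per kilobase, Fgb 6238 ± 675 and Fga 6126 ± 1940.3 (SD, n = 4). Vtn, which encodes vitronectin, an adhesive plasma protein that also restrains the membrane pore, followed at 5181 ± 1926, and C3, on which all complement routes converge, at 4548 ± 1446. The order then ran through Serpinf2, the plasmin inhibitor (3732 ± 584), and Kng1, kininogen (2935 ± 777), down to the terminal components C9 (4.62 ± 3.02) and C6 (3.68 ± 2.12). At every step of this order the ranges of neighbouring members over the tumours overlapped. The members were measured in the same tumours, and differences between neighbours within a tumour were not tested.

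**Figure D1:**
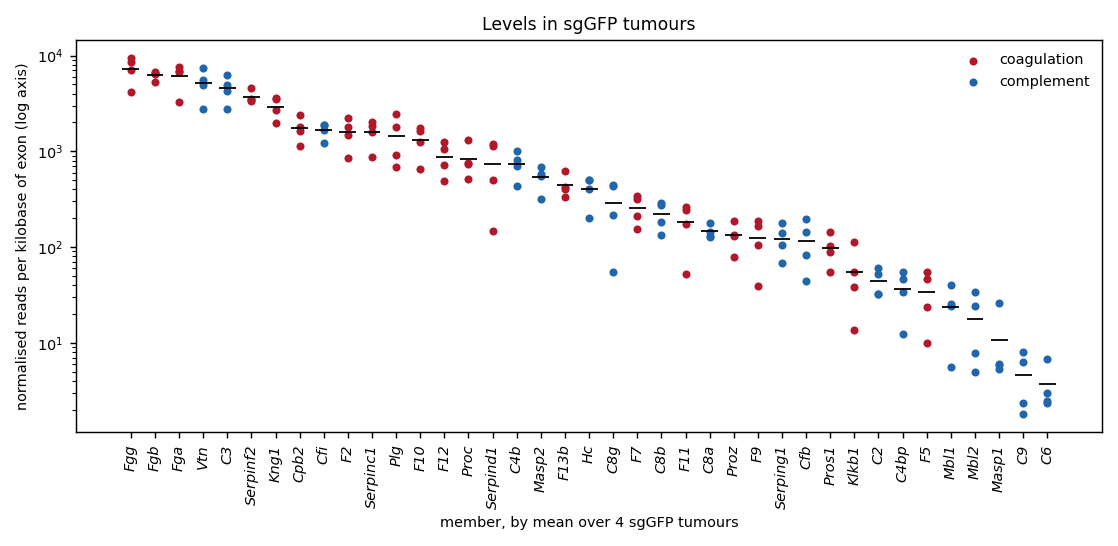
Normalised reads per kilobase of exon (log axis) of the 39 members in the 4 sgGFP tumours, ordered by mean. Points are tumours, bars are means, and colours separate coagulation from complement, with the fibrinogen chains at the top and C9 and C6 at the bottom.

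Across the guide groups, few of these genes passed the test over all genes. In sgCul3, 0 of the 21 coagulation and 0 of the 18 complement members passed in limma, where 2.20% of all 13045 tested genes did. There edgeR also called 0 of either (1.89%), DESeq2 called 1 and 2 (7.10% of all genes), and 1 and 3 had an unadjusted p under 0.05 (17.2%). In sgKeap1, 2 coagulation members passed, Cpb2 (higher) and Fga (lower), where 7.82% of all genes did. Of the complement members 0 passed there in limma, 1 in edgeR and 4 in DESeq2 (7.35% and 16.4% of all genes), and 3 had an unadjusted p under 0.05 (29.2%). With the effects of the sgCul3 and sgKeap1 guides averaged, Cpb2 and Fga passed again, where 7.56% of all genes did. Of the complement members 0 passed then in limma, 0 in edgeR (7.80%) and 3 in DESeq2 (15.7% of all genes), and 4 had an unadjusted p under 0.05 (27.0%). Between sgKeap1 and sgCul3, 0 members passed with limma, edgeR or DESeq2, where 0.0613%, 0.0460% and 0.797% of all genes did, and 1 had an unadjusted p under 0.05 (10.1%).

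In sgNrf2, 38 members were tested, since C6 was too low, and C4bp and Masp1 (both complement, both higher) passed, where 4.41% of all 13989 genes did. Of the coagulation members 0 passed there in limma, 0 in edgeR (3.32%) and 7 in DESeq2 (18.9% of all genes), and 9 had an unadjusted p under 0.05 (30.3%). The tumours of a group can also be set against the controls without a test. No overlap with sgGFP was found in sgCul3 for 3 members, all higher (Cpb2, C4bp and C9), where 16.2% of all genes did not overlap. In sgKeap1 it was found for Cpb2 and Mbl2, higher, and for Fga, Fgb, Fgg and Masp1, lower, where 25.8% of all genes did not overlap.

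**Figure D2:**
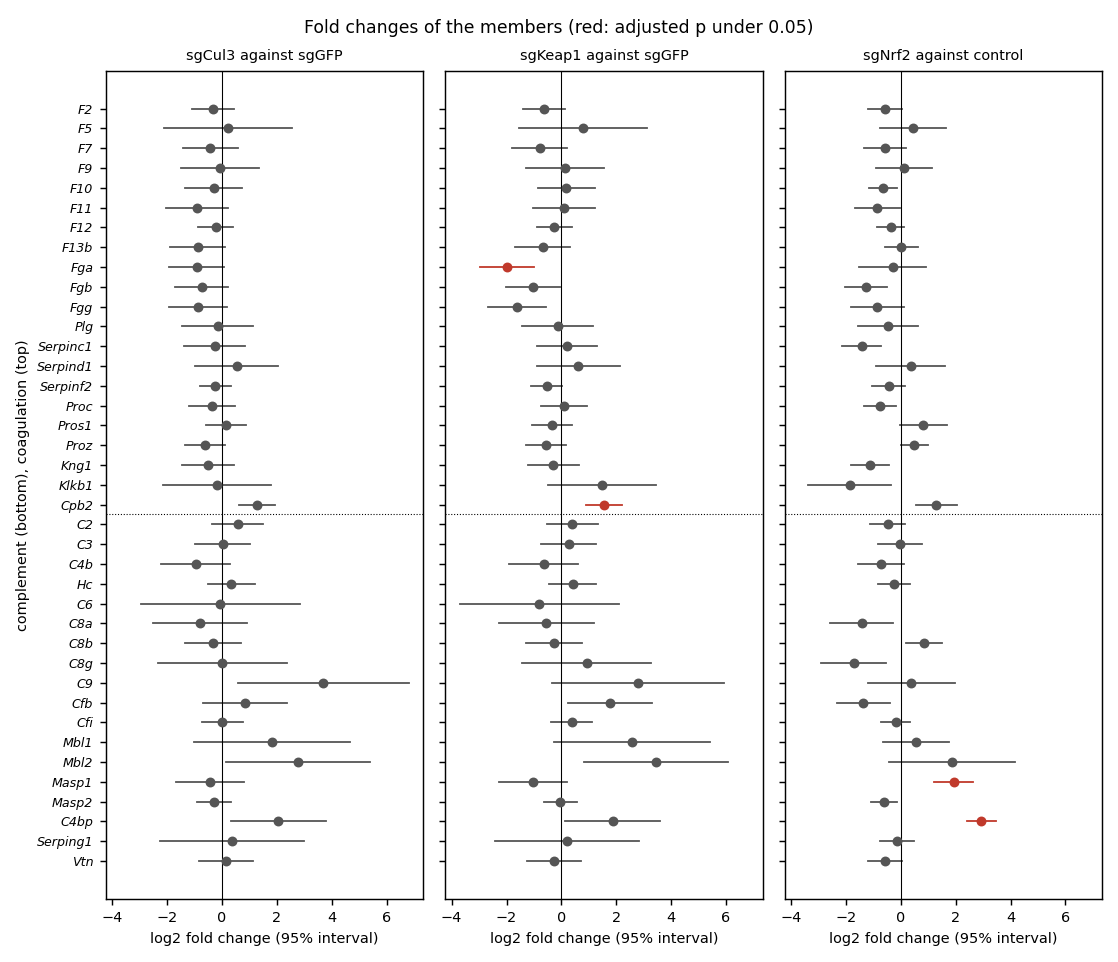
Log2 fold changes (points) with 95% intervals (lines) of the members in sgCul3 and sgKeap1 against sgGFP and in sgNrf2 against the controls. Red marks an adjusted p under 0.05, reached by Fga and Cpb2 in sgKeap1 and by Masp1 and C4bp in sgNrf2.

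Cpb2 (ENSMUSG00000021999.8, GRCm38 chromosome 14, 75242287 to 75283555) encodes the carboxypeptidase known as TAFI, which trims fibrin and so slows its removal by plasmin. It had 8018, 6799.9 and 5403 normalised reads in the sgCul3 tumours, 11309.8, 5988 and 7622 in the sgKeap1 tumours and 1865, 3885, 2941 and 2651 in the sgGFP tumours. All 6 guide tumours lay above all 4 sgGFP tumours. The log2 fold change was 1.28 ± 0.30 in sgCul3 (SE, adjusted p = 0.055), 1.55 ± 0.30 in sgKeap1 (adjusted p = 0.013, or 2.92-fold) and 1.41 ± 0.25 for the average of both (adjusted p = 0.0085). So Cpb2 rose in sgKeap1 and in the average of both and missed the threshold in sgCul3. Between sgKeap1 and sgCul3 it differed by 0.27 ± 0.32 (95% interval -0.43 to 0.97, adjusted p = 0.76). In the second table it had 23468 and 15351 normalised reads in the sgNrf2 tumours and 8505 and 7069.7 in the controls. Both sgNrf2 tumours lay above both controls, but the log2 fold change of 1.29 ± 0.29 did not pass (0.070, 0.0011 to 0.47 over the alternatives). Without sgKeap1 tumour 3, the adjusted p of Cpb2 in sgKeap1 was 0.052, and all alternatives gave 3.0e-05 to 0.052. Its residual SD within groups was 0.41 on the log2 scale, beside a median of 0.41 over all tested genes.

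The other genes that remove fibrin or restrain its removal did not pass. Plg, which encodes plasminogen, had log2 fold changes of -0.16 ± 0.59 in sgCul3, -0.14 ± 0.59 in sgKeap1 and -0.47 ± 0.43 in sgNrf2. Serpinf2, the inhibitor of plasmin, had -0.24 ± 0.25 in sgCul3, -0.54 ± 0.25 in sgKeap1 and -0.44 ± 0.24 in sgNrf2, with adjusted p of 0.18 to 0.68. Per kilobase, Cpb2 stood at 9.28, 2.11 and 2.28 times the level of Plg in the sgCul3 tumours, 7.37, 1.48 and 6.98 in the sgKeap1 tumours and 1.67, 2.63, 0.742 and 0.911 in the sgGFP tumours. The groups overlapped in this ratio, and tumour 2 had the lowest value of sgCul3 and of sgKeap1. In the sgNrf2 tumours it was 6.33 and 4.80, above the 2.69 and 0.980 of the controls.

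The 3 fibrinogen chains are encoded side by side on chromosome 3. Fga (ENSMUSG00000028001.16, GRCm38 chromosome 3, 83026076 to 83033627) encodes the alpha chain. It had 5250.3, 19128 and 7898 normalised reads in the sgCul3 tumours, 6083, 3462 and 4089 in the sgKeap1 tumours and 22763, 20434, 20742 and 9817 in the sgGFP tumours. Every sgKeap1 tumour lay below every sgGFP tumour, whereas sgCul3 tumour 2 lay among the sgGFP tumours. The log2 fold change was -1.99 ± 0.45 in sgKeap1 (SE, adjusted p = 0.026), -0.92 ± 0.45 in sgCul3 (0.32) and -1.46 ± 0.38 for the average of both (0.043), so Fga fell in sgKeap1 and in the average of both. In sgKeap1 its adjusted p was 0.057, 0.055 and 0.071 without sgGFP tumours 1, 2 and 3, and 0.10 without sgKeap1 tumour 2 or tumour 3, and all alternatives gave 0.00019 to 0.10. For the average it was 0.089 and 0.055 without sgCul3 tumours 1 and 3, 0.094, 0.096 and 0.13 without sgGFP tumours 1, 2 and 3, and 0.078 and 0.092 without sgKeap1 tumours 2 and 3, and all alternatives gave 0.0031 to 0.13. Fga had 25385 and 21536 normalised reads in the sgNrf2 tumours, between the 44902 and 18522 of the controls, at a log2 fold change of -0.30 ± 0.47.

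Fgg (ENSMUSG00000033860.13, chromosome 3, 83007724 to 83015049), the gamma chain, had 4039.9, 18933 and 6530.5 normalised reads in the sgCul3 tumours, 5429.7, 5276 and 3664 in the sgKeap1 tumours and 17808, 19616, 14949.8 and 8642 in the sgGFP tumours. Fgb (ENSMUSG00000033831.5, chromosome 3, 83040141 to 83049863), the beta chain, had 9401, 32266 and 9314 in the sgCul3 tumours, 10286, 17441 and 8667 in the sgKeap1 tumours and 24331, 25457, 25290.4 and 19983 in the sgGFP tumours. For both chains all sgKeap1 tumours lay below all sgGFP tumours, and so did sgCul3 tumours 1 and 3, while sgCul3 tumour 2 lay within the sgGFP range for Fgg and above it for Fgb. The log2 fold changes in sgKeap1, -1.63 ± 0.48 for Fgg and -1.03 ± 0.45 for Fgb, did not pass (0.060 and 0.15), nor did those in sgCul3, -0.88 ± 0.48 for Fgg and -0.74 ± 0.45 for Fgb. The adjusted p of Fgg in sgKeap1 was 0.0061 to 0.17 over the alternatives, and it passed, lower, in 6 of them: the sgKeap1 and sgGFP groups fitted alone (0.024), DESeq2 (0.0061), equal totals (0.044), quantile scaling (0.040), the tumour number block (0.026) and the fit without sgGFP tumour 4 (0.048). In the average of both guides with sgCul3 tumour 2 left out, Fga, Fgb and Fgg all passed, lower, beside Cpb2, where 4.60% of all genes passed. That fit removes the guide tumour with the most Fgb. Fgb passed in no other alternative of that average, and Fgg otherwise only in DESeq2 and with the tumour number block. In the second table Fgb had 23258 and 17733 normalised reads in the sgNrf2 tumours against 54702 and 43548 in the controls, and Fgg had 19109 and 16544 against 44331 and 23401. Both sgNrf2 tumours were below both controls for these 2 chains, at log2 fold changes of -1.26 ± 0.29 and -0.86 ± 0.38 that did not pass (0.074 and 0.20).

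The chains did not keep 1 ratio across tumours. Per kilobase, Fga stood at 0.707, 0.750 and 1.07 times the level of Fgb in the sgCul3 tumours, 0.749, 0.251 and 0.597 in the sgKeap1 tumours and 1.18, 1.02, 1.04 and 0.622 in the sgGFP tumours. The lowest of these ratios was that of sgKeap1 tumour 2, where Fgb was the highest of its group and Fga the lowest. In the sgNrf2 tumours the ratio was 1.38 and 1.54, above the 1.04 and 0.538 of the controls. These ratios were looked at after the levels were seen and carry no test.

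**Figure D3:**
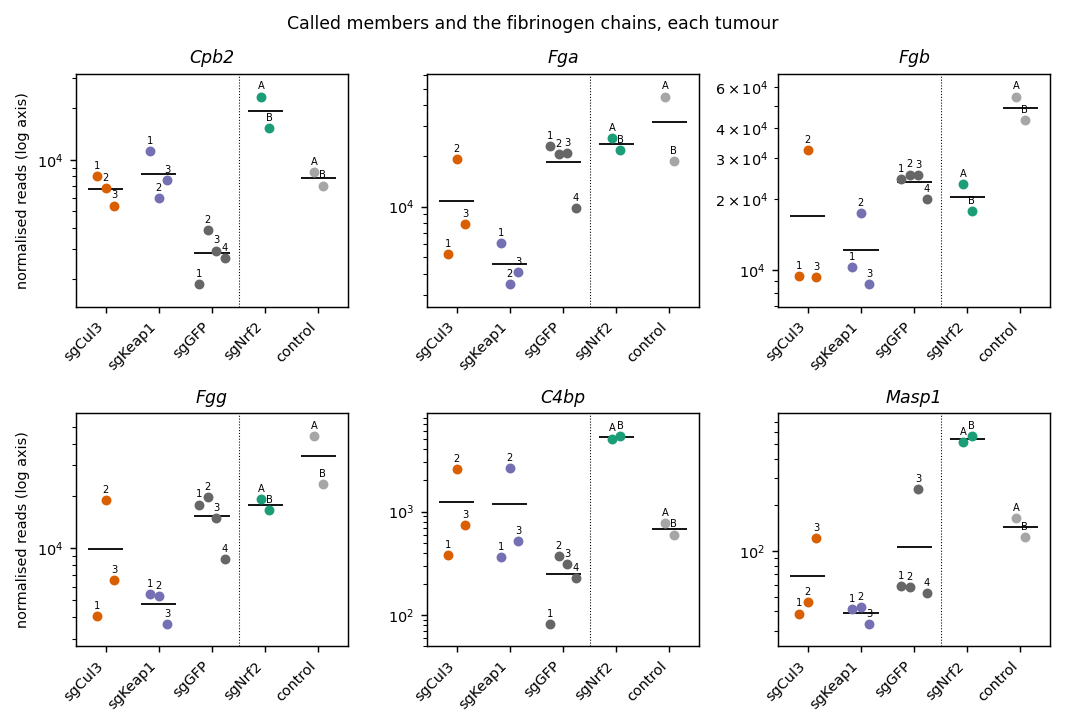
Normalised reads (log axis) of Cpb2, the fibrinogen chains Fga, Fgb and Fgg, C4bp and Masp1 in each tumour, with tumour numbers or letters and group means (bars). The dotted line separates the 2 tables, which were scaled apart. All sgKeap1 tumours lie above the sgGFP tumours for Cpb2 and below them for the 3 fibrinogen chains, and both sgNrf2 tumours lie above both controls for Cpb2, C4bp and Masp1.

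The DNA upstream of the called coagulation members, Cpb2 and Fga, is shown, with that of Fgb and Fgg, which lie beside Fga and did not pass. Sequences are from RefSeq on GRCm38.p6, cover up to 250 bases before the start of the gene on its own strand, and are given 5′ to 3′ without bases that GENCODE places inside the gene. They lie at chr3:83025903-83026075 (plus strand), chr3:83049864-83050113 (minus strand), chr3:83007474-83007723 (plus strand) and chr14:75242037-75242286 (plus strand). Capitals mark matches to the motif letters named after them.
Fga: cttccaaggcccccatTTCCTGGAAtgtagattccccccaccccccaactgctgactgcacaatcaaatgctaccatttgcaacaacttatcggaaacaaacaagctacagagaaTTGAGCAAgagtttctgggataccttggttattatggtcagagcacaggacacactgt
Fgb: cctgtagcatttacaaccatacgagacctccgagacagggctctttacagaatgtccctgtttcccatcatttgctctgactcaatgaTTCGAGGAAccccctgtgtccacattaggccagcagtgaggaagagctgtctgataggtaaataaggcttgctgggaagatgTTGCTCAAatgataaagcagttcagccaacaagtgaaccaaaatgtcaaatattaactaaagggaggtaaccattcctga
Fgg: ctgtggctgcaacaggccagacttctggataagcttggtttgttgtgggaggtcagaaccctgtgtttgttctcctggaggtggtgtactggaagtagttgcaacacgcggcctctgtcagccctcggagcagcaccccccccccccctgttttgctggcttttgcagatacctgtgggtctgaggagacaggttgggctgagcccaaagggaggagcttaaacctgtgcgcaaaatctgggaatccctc
Cpb2: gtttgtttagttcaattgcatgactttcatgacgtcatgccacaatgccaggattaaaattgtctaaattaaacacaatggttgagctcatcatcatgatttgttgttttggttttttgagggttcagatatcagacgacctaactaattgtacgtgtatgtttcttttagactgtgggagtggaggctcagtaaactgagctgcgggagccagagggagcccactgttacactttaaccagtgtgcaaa
The Fga and Fgb windows each hold a C/EBP-type motif (TTGCNNAA, found as TTGAGCAA in Fga and TTGCTCAA in Fgb) and a STAT-type motif (TTCNNNGAA, found as TTCCTGGAA and TTCGAGGAA), the letters bound by transcription factors of the acute phase response. The Fga match to the C/EBP letters is on the other strand. Counted back from the RefSeq start, the first base of these matches is at -135 and -234 in Fga and at -80 and -162 in Fgb. The Fgg and Cpb2 windows hold none of the motifs searched.

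Windows were found for 30 of the 39 members (31 windows, C8g having 2), and 6 motifs were searched on both strands of the 250 bases before the start. The matches in Fga and Fgb do not overlap each other. The C/EBP letters TTGCNNAA were in 7 of the 31 windows (22.6%, against 9.56% of all 32851 RefSeq windows), those of C3, C9, F11, F9, Fga, Fgb and Klkb1. The STAT letters TTCNNNGAA were in 6 (19.4%, against 7.02%), those of C8a, F9, Fga, Fgb, Masp2 and Pros1. The core of the antioxidant response element, TGACNNNGC, which NRF2 binds with its small MAF partners, was in 2 (6.45%, against 10.2% of all windows), those of Klkb1 and Serpind1. An HNF1 motif of 12 letters was in the window of Hc (3.23%, against 0.0609%), and the HNF4 letters CAAAGTCCA and the MYC and MAX letters CACGTG were in 0 of the 31 windows (0.384% and 6.02% of all windows hold them). A match of letters is a description of these windows, and draws nothing about binding.

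The clotting proteases and their cofactors did not pass in limma in sgCul3, sgKeap1 or sgNrf2. Log2 fold changes of F2 (prothrombin), F7, F9, F10, F11 and F12 (protease precursors of the cascade), F5 (the cofactor of factor X) and F13b (the carrier subunit of the enzyme that crosslinks fibrin) ran from -0.91 (F11) to 0.22 (F5) in sgCul3 and from -0.79 (F7) to 0.78 (F5) in sgKeap1. In sgNrf2 they ran from -0.85 (F11) to 0.46 (F5). F11 had 148, 273 and 156 normalised reads in the sgCul3 tumours, 437, 486 and 245 in the sgKeap1 tumours and 117, 389, 544 and 593 in the sgGFP tumours. All 6 guide tumours lay inside the sgGFP range. F5 had 76.0, 921 and 198 normalised reads in the sgCul3 tumours, 109.5, 2250.0 and 183 in the sgKeap1 tumours and 73.5, 175, 413 and 342 in the sgGFP tumours, with tumour 2 the highest of both guide groups.

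The contact system, which starts clotting on foreign surfaces and releases kinins, consists of F12, Klkb1 (plasma prekallikrein) and Kng1 (kininogen). Klkb1 had 134 and 239 normalised reads in the sgNrf2 tumours and 390.3 and 1092 in the controls, and Kng1 had 10802 and 10975 against 19589 and 28679.9. Both sgNrf2 tumours were below both controls for either gene, at log2 fold changes of -1.86 ± 0.59 and -1.12 ± 0.27 that did not pass (0.12 and 0.078). Klkb1 had 115, 1721 and 179 normalised reads in the sgKeap1 tumours, against 37.1, 151, 105 and 314 in the sgGFP tumours, and the log2 fold change of 1.48 ± 0.90 did not pass. Tumour 2 alone lay above the sgGFP range. The identifier that the files pair with Klkb1 belongs in GENCODE M21 to an overlapping gene model, Gm45753, so the value of Klkb1 is uncertain. Kng1 has a close copy, Kng2, with which it may share reads.

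The inhibitors of coagulation did not pass either. Serpinc1 encodes antithrombin, the main inhibitor of thrombin and factor Xa. It had 9673 and 13729 normalised reads in the sgNrf2 tumours and 28665 and 33804 in the controls, with no overlap. Its log2 fold change of -1.43 ± 0.28 missed the threshold (0.057, 4.9e-05 to 0.49 over the alternatives). Serpinc1 had -0.27 ± 0.50 in sgCul3 and 0.20 ± 0.50 in sgKeap1. Serpind1, heparin cofactor II, had 0.53 ± 0.69 in sgCul3, 0.62 ± 0.69 in sgKeap1 and 0.36 ± 0.49 in sgNrf2. Proc, which encodes protein C, the protease that inactivates factors V and VIII, had -0.38 ± 0.38 in sgCul3, 0.09 ± 0.38 in sgKeap1 and -0.76 ± 0.23 in sgNrf2. Its cofactor protein S, Pros1, had 0.15 ± 0.33 in sgCul3, -0.34 ± 0.33 in sgKeap1 and 0.82 ± 0.33 in sgNrf2, and Proz, a cofactor in the inhibition of factor Xa, had -0.61 ± 0.33 in sgCul3, -0.56 ± 0.33 in sgKeap1 and 0.49 ± 0.19 in sgNrf2. In sgNrf2 both tumours were below both controls for Proc and above both for Pros1 and Proz.

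As a list, the coagulation members had median log2 fold changes of -0.30 in sgCul3, -0.26 in sgKeap1 and -0.47 in sgNrf2, where the medians of all tested genes were 0.01, -0.01 and 0.04. With any 1 tumour left out, the coagulation median ran from -0.60 to -0.13 in sgCul3. It was -0.59 without sgCul3 tumour 2 and -0.60, -0.18 and -0.13 without sgGFP tumours 1, 3 and 4. In sgKeap1 it ran from -0.54 to -0.05, at -0.54 and -0.05 without sgKeap1 tumours 2 and 3 and at -0.47, -0.13 and -0.06 without sgGFP tumours 1, 3 and 4. Its sign stayed negative in all of these. With all tumours, the value was negative for 17, 12 and 14 of the 21 in sgCul3, sgKeap1 and sgNrf2. Summed over the 21 members, the level was 60737, 143837 and 70823 normalised reads in the sgCul3 tumours, 71047, 125087 and 61547 in the sgKeap1 tumours and 101865, 121059, 137632 and 109949 in the sgGFP tumours. Tumours 1 and 3 of both guide groups lay below all sgGFP tumours, while sgCul3 tumour 2 lay above all of them and sgKeap1 tumour 2 above 3 of the 4. The fibrinogen chains Fgb, Fga and Fgg had the highest sgGFP means of the 21 (23765, 18439 and 15254 normalised reads) and so weigh most in this sum. As a share of reads on genes, sgKeap1 tumour 2 instead lay below all sgGFP tumours, at 0.949% against 1.29%, 1.31%, 1.45% and 1.05%. The other guide tumours kept their places against sgGFP on that scale. In the sgNrf2 tumours the sum was 162997 and 155029, below the 262677 and 240371 of the controls. The 9 hepatocyte markers summed to less in both sgNrf2 tumours than in both controls as well, and the part of that in this difference was not tested. Both sgNrf2 tumours lay below both controls in 12 of the 21 coagulation members and above in 3, while 64.0% of all tested genes did not overlap in either direction (30.7% lower and 33.3% higher). Without control A, 24.2% of all genes passed, and with them 7 coagulation members, all lower, namely F10, F11, Klkb1, Kng1, Plg, Proc and Serpinc1. With libraries scaled to equal totals, the median over all genes in sgNrf2 was 0.34 in place of 0.04, the coagulation median -0.16, the complement median 0.13 in place of -0.18, and the members with a positive value were 18 of 38 in place of 13. Equal totals moved the median of all genes in sgKeap1 to -0.21, the members with a positive value to 15 of 39 in place of 20, and the coagulation and complement medians to -0.46 and 0.12. In sgNrf2, under either scaling, both member medians were below that of all genes.

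**Figure D4:**
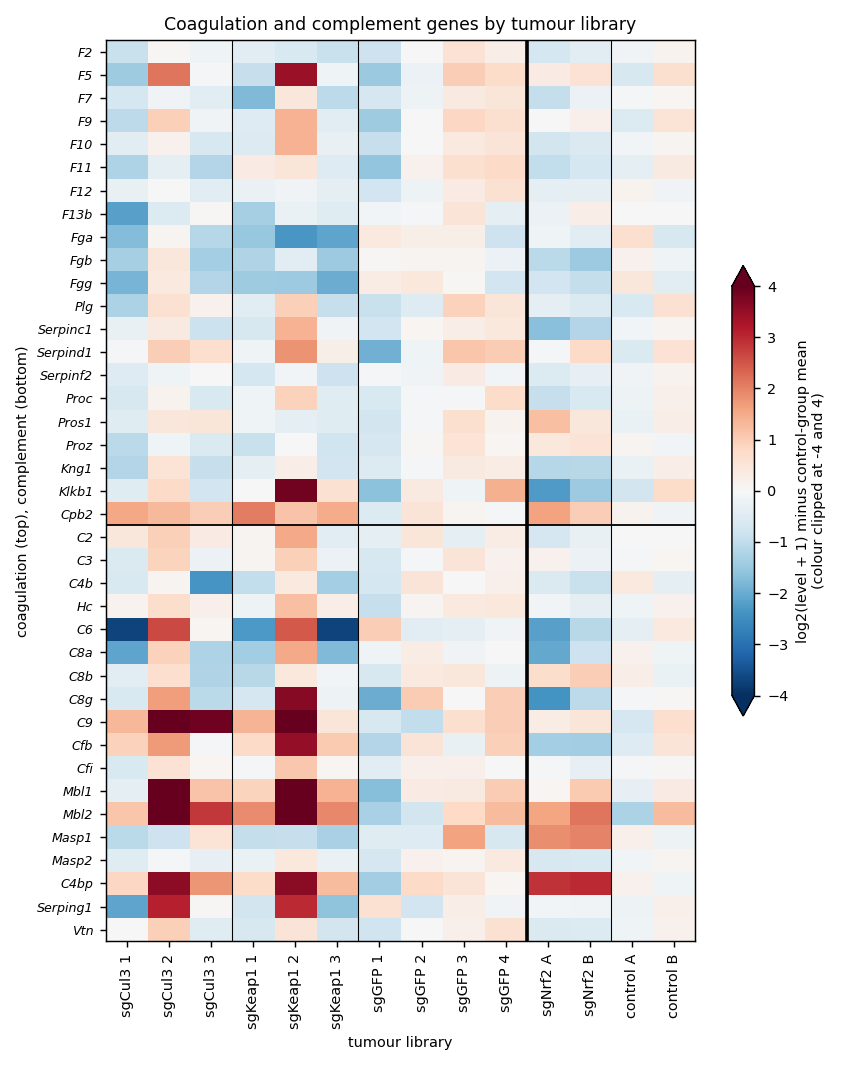
Log2 level of each member (rows) in each tumour (columns), minus the mean of sgGFP for the first 10 columns and of the controls for the last 4, which come from a table scaled apart. Red is higher, blue lower, and colours stop at -4 and 4. Tumour 2 of sgCul3 and of sgKeap1 is red over most complement members, and the fibrinogen chains are blue in all sgKeap1 tumours.

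Among the complement members, C4bp (ENSMUSG00000026405.14, GRCm38 chromosome 1, 130634773 to 130661632) had the largest fold change that passed. It encodes the C4b-binding protein, which restrains the classical and lectin routes. It had 5062 and 5378 normalised reads in the sgNrf2 tumours and 771 and 599 in the controls. Both sgNrf2 tumours lay far above both controls, and C4bp rose by 2.94 ± 0.21 on the log2 scale (7.67-fold, SE of the log2 value, adjusted p = 0.023). Without sgNrf2 tumour A or B its adjusted p was 0.090 and 0.060, in a range of 1.2e-22 to 0.090 over the alternatives. In the first table it had 381, 2586 and 743 normalised reads in the sgCul3 tumours, 360.4, 2651 and 522 in the sgKeap1 tumours and 82.3, 371, 312 and 227 in the sgGFP tumours. All sgCul3 tumours lay above all sgGFP tumours, sgKeap1 tumour 1 lay within their range, and tumour 2 was by far the highest of either guide group. The log2 fold changes of 2.05 ± 0.78 in sgCul3 and 1.87 ± 0.78 in sgKeap1 did not pass (0.21 and 0.14). With the tumour number as a block in limma, C4bp passed in sgCul3 (adjusted p = 0.028), the only member that did (1.78% of all genes passed). That block was fitted over all 3 groups of the first table, sgKeap1 included. The labels do not say that the numbers pair tumours. GENCODE draws a pseudogene copy, C4bp-ps1, beside C4bp, with which reads may be shared.

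The window upstream of C4bp lies at chr1:130661633-130661868 on the minus strand. It is shown as that of the member with the largest called fold change, and it holds none of the 6 motifs.
C4bp: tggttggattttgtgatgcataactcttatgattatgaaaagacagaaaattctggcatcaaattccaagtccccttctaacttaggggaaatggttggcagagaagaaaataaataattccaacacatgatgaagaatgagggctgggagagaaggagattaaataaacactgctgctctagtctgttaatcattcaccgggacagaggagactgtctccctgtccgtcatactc
The sequence of C4bp ends where GENCODE's gene begins.

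Masp1 (ENSMUSG00000022887.8, GRCm38 chromosome 16, 23449417 to 23520815) encodes a protease that binds the mannose-binding lectins and starts the lectin route. It had 517 and 566 normalised reads in the sgNrf2 tumours and 163 and 123 in the controls, with no overlap. Masp1 rose in sgNrf2 by 1.93 ± 0.28 on the log2 scale (3.80-fold, adjusted p = 0.043). Its adjusted p was 0.052 without control B and 0.31 and 0.25 without sgNrf2 tumour A and tumour B, in a range of 8.5e-06 to 0.31 over the alternatives. In the first table Masp1 had 38.7, 46.1 and 121 normalised reads in the sgCul3 tumours, 41.7, 42.6 and 33.2 in the sgKeap1 tumours and 58.7, 57.5, 253 and 52.8 in the sgGFP tumours. Every sgKeap1 tumour lay below every sgGFP tumour, and sgGFP tumour 3 lay far above the rest. The log2 fold change of -1.04 ± 0.56 in sgKeap1 did not pass (0.24) and was -0.51 without sgGFP tumour 3 (adjusted p = 0.49), and that of sgCul3 was -0.44 ± 0.56.

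The other members of the lectin route are Masp2, the protease that cleaves C4 and C2, and the mannose-binding lectins Mbl1 and Mbl2, which recognise microbial sugars. Mbl2 had 33.2, 414 and 110.2 normalised reads in the sgCul3 tumours, 57.2, 1784 and 59.2 in the sgKeap1 tumours and 5.40, 8.44, 26.6 and 36.7 in the sgGFP tumours. All sgKeap1 tumours lay above all sgGFP tumours, and tumour 2 was the highest of both guide groups. The log2 fold changes of 2.79 ± 1.20 in sgCul3 and 3.45 ± 1.20 in sgKeap1 did not pass in limma (0.26 and 0.091). Mbl1 had 1.82 ± 1.29 in sgCul3 and 2.57 ± 1.29 in sgKeap1, with 23.5, 880.0 and 68.0 normalised reads in the sgCul3 tumours, 57.2, 1508 and 82.3 in sgKeap1 and 8.77, 38.4, 39.9 and 62.6 in the sgGFP tumours. In sgNrf2 the log2 fold changes were 1.86 ± 0.89 for Mbl2, 0.56 ± 0.47 for Mbl1 and -0.62 ± 0.19 for Masp2, and none of them passed. Masp2 had -0.29 ± 0.28 in sgCul3 and -0.04 ± 0.28 in sgKeap1.

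C2 and C4b, which form the C3-cleaving enzyme of the classical and lectin routes, C3 itself and Cfb, the protease of the alternative route, did not pass. C3 had log2 fold changes of 0.03 ± 0.46 in sgCul3 (95% interval -0.97 to 1.04), 0.27 ± 0.46 in sgKeap1 (-0.73 to 1.27) and -0.03 ± 0.31 in sgNrf2 (-0.83 to 0.78). Cfb had 544, 938 and 269 normalised reads in the sgCul3 tumours, 484, 3292 and 595 in the sgKeap1 tumours and 126, 407, 233 and 549.5 in the sgGFP tumours. The log2 fold change in sgKeap1 was 1.78 ± 0.69 (0.12), and sgKeap1 tumour 2 was the highest library. Cfb had 502 and 490.4 normalised reads in the sgNrf2 tumours, below the 896 and 1829 of the controls, at -1.37 ± 0.38 (0.096). C2 had 0.57 ± 0.42 in sgCul3, 0.40 ± 0.42 in sgKeap1 and -0.48 ± 0.25 in sgNrf2, and C4b had -0.96 ± 0.57 in sgCul3, -0.65 ± 0.57 in sgKeap1 and -0.74 ± 0.33 in sgNrf2. C4b has a near-identical copy, C4a, so the genes may share reads.

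Of the regulators other than C4bp, Cfi, the protease that destroys C3b and C4b, had log2 fold changes of 0.02 ± 0.34 in sgCul3, 0.38 ± 0.34 in sgKeap1 and -0.18 ± 0.21 in sgNrf2. Vtn had 9862, 19013 and 7152 normalised reads in the sgCul3 tumours, 6335, 14183 and 5989.9 in the sgKeap1 tumours and 5671, 9881, 11392 and 15122 in the sgGFP tumours. The groups overlapped, at 0.15 ± 0.45 in sgCul3 and -0.29 ± 0.45 in sgKeap1. Vtn had 16484 and 16674 normalised reads in the sgNrf2 tumours, below the 21834 and 27461 of the controls, at -0.56 ± 0.24 (0.19). Serping1, the C1 inhibitor, which also blocks the contact system, had 60.8, 2342 and 277 normalised reads in the sgCul3 tumours, 159, 2116 and 86.6 in the sgKeap1 tumours and 412, 158, 325 and 244 in the sgGFP tumours. Tumour 2 of each guide group lay above, and tumour 1 of sgCul3 and tumour 3 of sgKeap1 below, the whole sgGFP range. The log2 fold changes were 0.35 ± 1.19 in sgCul3 and 0.21 ± 1.19 in sgKeap1.

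The terminal components, which assemble into the membrane pore, are Hc (C5), C6, the 3 chains of C8 and C9. C9 had 26.3, 836 and 163 normalised reads in the sgCul3 tumours, 27.0, 1251 and 14.4 in the sgKeap1 tumours and 6.07, 4.60, 15.9 and 20.6 in the sgGFP tumours. All sgCul3 tumours lay above all sgGFP tumours, and sgKeap1 tumour 3 lay within their range. The log2 fold changes of 3.70 ± 1.42 in sgCul3 and 2.80 ± 1.42 in sgKeap1 did not pass (0.22 and 0.21). Hc had 0.35 ± 0.39 in sgCul3, 0.42 ± 0.39 in sgKeap1 and -0.25 ± 0.23 in sgNrf2. C6 had 0, 79.8 and 12.5 normalised reads in the sgCul3 tumours, 1.63, 68.9 and 0 in the sgKeap1 tumours and 24.3, 8.44, 8.86 and 10.7 in the sgGFP tumours. It was at 0 in sgCul3 tumour 1 and sgKeap1 tumour 3, where a count of 0 allows up to 3 reads, for counting error only.

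The 3 chains of C8 did not share 1 direction in sgNrf2. C8a, the alpha chain, had 334 and 782 normalised reads in the sgNrf2 tumours and 1542 and 1226 in the controls, and C8g, the gamma chain, had 261 and 655 against 1321 and 1399.8. C8b, the beta chain, had 2335 and 2807 against 1724 and 1176. Both sgNrf2 tumours were below both controls for C8a and C8g and above both for C8b. None of these passed (log2 fold changes -1.43 ± 0.44, -1.72 ± 0.46 and 0.85 ± 0.26, adjusted p = 0.12, 0.092 and 0.11). Per kilobase, C8b stood at 9.99 and 5.13 times the level of C8a in the sgNrf2 tumours and at 1.60 and 1.37 in the controls. It stood at 4.61, 1.22 and 1.48 in the sgCul3 tumours, 1.76, 0.678 and 4.61 in the sgKeap1 tumours and 1.05, 1.54, 2.19 and 1.25 in the sgGFP tumours. In sgCul3 the log2 fold changes were -0.80 ± 0.79 for C8a, -0.33 ± 0.47 for C8b and 0.00 ± 1.07 for C8g, in sgKeap1 they were -0.55 ± 0.79, -0.27 ± 0.47 and 0.92 ± 1.07, and none passed. The C8b to C8a ratio was picked after the levels were seen and carries no test.

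As a list, the complement members had median log2 fold changes of 0.09 in sgCul3, 0.32 in sgKeap1 and -0.18 in sgNrf2, with positive values in 12 of 18, 11 of 18 and 6 of 17. Without tumour 2 of the guide group the medians were -0.26 in sgCul3 and -0.21 in sgKeap1, and without sgGFP tumour 1 the median in sgCul3 was -0.04, in ranges of -0.26 to 0.44 and -0.21 to 0.56 over all tumours left out in turn. The direction of these medians therefore rests on single tumours. In sgNrf2 the median ran from -0.32 to -0.08 with any 1 tumour left out. There, without control A, 5 of the 17 complement members passed, beside 24.2% of all genes, C4bp, C8b and Masp1 (higher) and Cfb and Masp2 (lower). Both sgNrf2 tumours lay above both controls in 4 of the 17 tested complement members and below in 7, where 33.3% of all genes lay above and 30.7% below (64.0% in either direction).

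Tumours of the same group differed widely in these genes, above all in complement. The residual SD on the log2 scale, over the 3 groups of the first table, had a median of 0.71 in the coagulation and 1.01 in the complement members, against 0.41 over all 13045 tested genes. The largest values were those of C9 (2.31), Mbl1 (2.10), C6 (2.09), Serping1 (1.95), Mbl2 (1.94), C8g (1.75) and F5 (1.73), and the smallest those of Serpinf2 (0.29), Masp2 (0.40) and Cpb2 (0.41). Tumour 2 was the highest of its group in 34 of the 39 members in sgKeap1 (37.1% of all genes) and likewise in 34 of 39 in sgCul3 (30.3%). The complement members of sgKeap1 tumour 2 lay above the mean of the other sgKeap1 tumours by a median of 2.13 on the log2 scale, and 16 of the 18 were more than doubled, as were 11.6% of all tested genes. In sgCul3 tumour 2 the median was 1.54, and 13 of the 18 were more than doubled, as were 8.91% of all genes. The coagulation members of these tumours lay above their groups by medians of 0.86 and 0.78. Of all 39 members, 20 had their highest value of the first table in sgKeap1 tumour 2, as did 20.8% of all genes, and 6 had it in sgCul3 tumour 2, as did 4.51%. The lowest value lay in sgGFP tumour 1 for 18 members (13.5% of all genes) and in sgCul3 tumour 1 for 10 (9.57%). The hepatocyte markers summed to the most in tumour 2 within sgKeap1 and within sgCul3, and the part of this in the members' values was not tested.

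**Figure D5:**
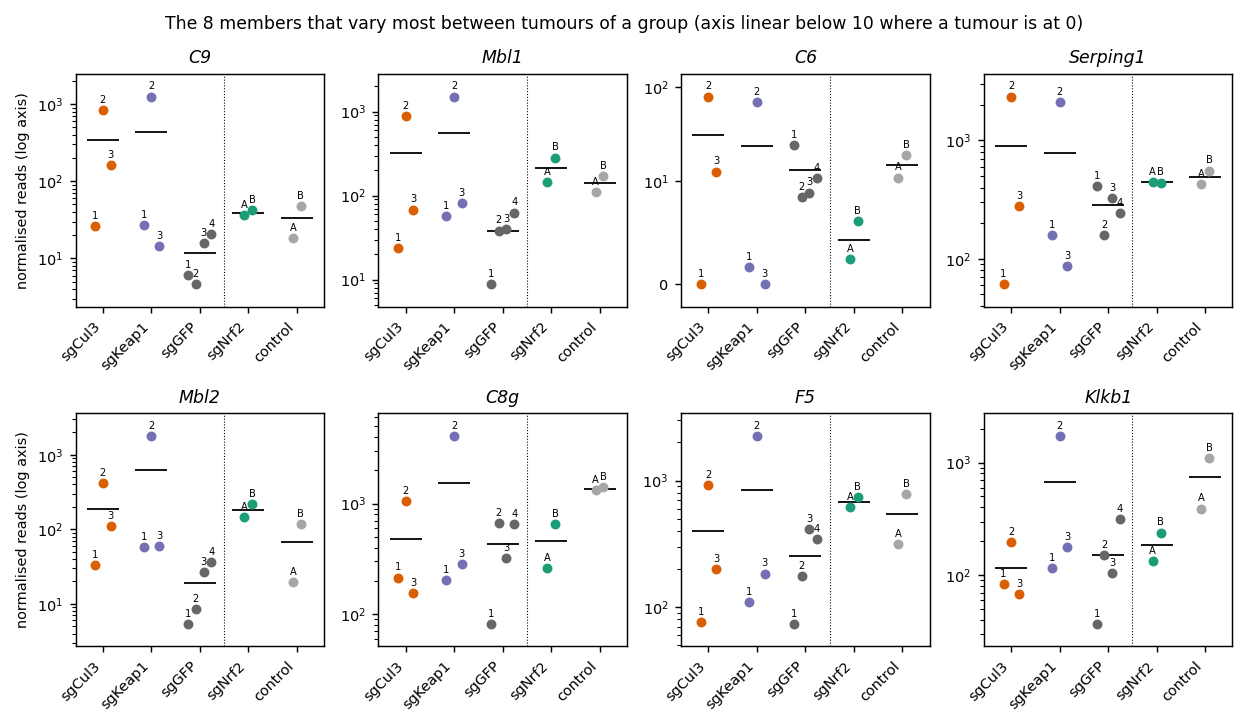
Normalised reads (log axis, linear below 10 where a tumour is at 0) of the 8 members with the largest residual SD, in each tumour, with group means (bars) and a dotted line between the 2 tables. Tumour 2 is the highest of sgCul3 and of sgKeap1 for all 8.

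Controls A and B are repeats of sgGFP tumours 2 and 4, which allows the members to be compared across the 2 tables. The difference between control B and control A had the same direction as that between sgGFP tumours 4 and 2 in 34 of the 39 members. Across members, which are not independent, Pearson's r of these differences was 0.88, and the median gap between them was 0.27 on the log2 scale. The order of levels within that pair of tumours therefore carried over from one table to the other for most members. The share of all genes that did so was not counted, so this does not set the members apart.

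Other genes of coagulation and fibrinolysis, 30 by list and made in part by other cells, were followed beside the members. Of 28 tested, limma called 0 higher and 1 lower in sgCul3, 3 higher and 2 lower in sgKeap1, and 0 higher and 1 lower in sgNrf2, where 2.20%, 7.82% and 4.41% of all genes passed in either direction. F3, tissue factor, which starts clotting, had 38.7, 16.8 and 18.0 normalised reads in the sgCul3 tumours, 75.2, 68.9 and 33.2 in the sgKeap1 tumours and 11.5, 11.5, 5.31 and 8.95 in the sgGFP tumours. All guide tumours lay above all sgGFP tumours, and F3 rose in sgKeap1 by 2.39 ± 0.45 on the log2 scale (adjusted p = 0.011, 3.3e-05 to 0.049 over the alternatives), while sgCul3 had 1.18 ± 0.45 (0.21). In the sgNrf2 tumours it had 143 and 103, above the 16.2 and 31.6 of the controls, at 2.37 ± 0.51 (0.067). S100a10, part of a cell surface receptor for plasminogen, and Thbd, thrombomodulin, which turns thrombin to the activation of protein C and of the Cpb2 product, rose in sgKeap1 by 2.06 ± 0.33 and 1.42 ± 0.31 (0.0047 and 0.023). Thbd had an adjusted p of 0.069 and 0.10 without sgKeap1 tumours 2 and 3.

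Vkorc1, which recycles the vitamin K needed to finish F2, F7, F9, F10, Proc, Pros1 and Proz, had 705, 616 and 661 normalised reads in the sgKeap1 tumours and 1086, 1185, 1114 and 1186 in the sgGFP tumours. It had 1159 and 1175 in the sgNrf2 tumours and 2682 and 3250.1 in the controls. The groups did not overlap in either comparison. Vkorc1 fell in sgKeap1 (log2 fold change -0.79 ± 0.18, adjusted p = 0.028) and in sgNrf2 (-1.34 ± 0.19, 0.043). In sgKeap1 its adjusted p was 0.052, 0.059, 0.069 and 0.051 without each sgGFP tumour in order and 0.094 and 0.10 without sgKeap1 tumours 2 and 3, and in sgNrf2 it was 0.30 and 0.21 without sgNrf2 tumour A and tumour B. Vwf, von Willebrand factor, a product of endothelial cells and megakaryocytes, fell in sgCul3 (log2 fold change -2.23 ± 0.51, adjusted p = 0.049) and in sgKeap1 (-1.94 ± 0.51, 0.043). In sgCul3 its adjusted p was 0.094 with the tumour number as a block and 0.063 to 0.19 with any of the 7 tumours left out. In sgKeap1 it was 0.088, 0.12 and 0.070 without sgGFP tumours 1, 3 and 4 and 0.078 and 0.14 without sgKeap1 tumours 2 and 3. Vwf is also on the list of 8 endothelial markers, of which 7 had negative values in sgCul3 and 5 in sgKeap1, Vwf included. The part of that in the fall of Vwf was not tested.

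Of the 34 other complement genes, 26 were tested in the first table and 27 in the second. Limma called Clu higher and Cd46 lower in sgCul3 (2.20% of all genes) and C4a lower in sgNrf2 (4.41%). In sgKeap1 limma and edgeR called 0 of the 26 (7.82% and 7.35% of all genes), DESeq2 called 1 higher and 1 lower (16.4%), and 5 had an unadjusted p under 0.05 (29.2%). Clu, clusterin, which restrains the terminal pore, had 4293, 6543 and 8162 normalised reads in the sgCul3 tumours, 5629, 3468 and 2016 in the sgKeap1 tumours and 929.7, 2578, 2313 and 1454 in the sgGFP tumours. All sgCul3 tumours and 2 of the 3 sgKeap1 tumours lay above the sgGFP range, and Clu rose in sgCul3 (log2 fold change 1.86 ± 0.42, adjusted p = 0.048). Cd46, a membrane cofactor for the cleavage of C3b and C4b, fell in sgCul3 (log2 fold change -1.81 ± 0.40, adjusted p = 0.045). Blocking on the tumour number gave an adjusted p of 0.099 for Clu and 0.094 for Cd46, and with any of the 7 tumours left out it was 0.061 to 0.13 for Clu and 0.069 to 0.18 for Cd46. C4a, the copy of C4b, had 86.7 and 108 normalised reads in the sgNrf2 tumours against 422 and 496 in the controls. It fell, with no overlap (log2 fold change -2.23 ± 0.29, adjusted p = 0.039), while C4b had -0.74 ± 0.33 and did not pass. Without control B or sgNrf2 tumours A or B, the adjusted p of C4a was 0.054, 0.27 and 0.15.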

How the data were processed

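RNA was extracted with a Qiagen kit and libraries were made with an Illumina TruSeq kit, per the labels. The submitters' processing notes name Picard, HTSeq, DESeq and the mouse build mm10. As for the aligner, tool versions and annotation release, they were not given in the sources used here. Each deposited value is a signal, gene counts that the authors divided by size factors, and the first table has 1 added throughout. Whole reads were recovered in 100% of values, within 0.1 reads. Each library of the first table had 6333025 to 12008223 reads on genes, and the second had 17819333 to 20848578. Rows of the second table that name no gene stayed out of library sizes and tests. Reads aligned to more than 1 place, one such row, were 45.0% and 46.4% of the total in sgNrf2 and 56.8% and 58.0% in the controls.

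In R 4.3.3, limma 3.58.1 (trend) was fitted to the log2 of the deposited value plus 1 over genes averaging at least 10, one fit per table, in which the 3 groups of the first table share 1 estimate of the spread. Benjamini-Hochberg adjustment ran over all genes tested and the threshold was 0.05. Fold changes are on this log2 scale, which understates the change of low genes. Recovered reads were tested with edgeR 4.0.16 and DESeq2 1.42.0 as alternatives, since the deposited values are not raw counts. The other alternatives were a pseudocount of 5, no filter, a filter of 50, quantile scaling, equal library totals, a tumour number block, 2 groups alone, the first table without its added 1, and leaving out each tumour. Simulated data with known changes were used to check the scripts. Exon lengths and positions are from GENCODE M21 on GRCm38, of which mm10 is the UCSC name.

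The members and lists were chosen with earlier results of these data known. Values per tumour were planned for members that passed in at least 1 comparison and for the 4 highest per kilobase. Further members shown by tumour, and the ratios between members, were chosen after their values were seen. Of the other pathway genes, those that passed were named. The tumour number was fitted as a block over all groups of a table, as an alternative only. The labels do not say what the numbers mark. Same-numbered sgCul3 and sgGFP tumours correlated at 0.164, 0.175 and 0.314 in their deviations from the group means. Differently numbered ones correlated at -0.297 to 0.0770. The deviations of a group sum to 0, and the correlations come from these same data, so they cannot show whether tumours were paired.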

Additional observations from a re-analysis of the deposited data

Results flagged for a closer look

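In 39 groups of 4 sgGFP tumours, 1 per member, 3 members had a single tumour whose gap to its nearest neighbour took up more of the group's range than the 0.829 that Dixon's test allows. Chance flags about 1 in 20 such groups. The gap was 0.971 of the range for Masp1, with sgGFP tumour 3 at 253 normalised reads and the others at 52.8 to 58.7. It was 0.875 for Serpinf2 and 0.855 for C6, where sgGFP tumour 1 was the highest at 24.3 normalised reads.

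Masp1 differed in direction between guides. Every sgKeap1 tumour lay below every sgGFP tumour (log2 fold change -1.04, or -0.51 without sgGFP tumour 3), and both sgNrf2 tumours lay above both controls (log2 fold change 1.93). The difference between these effects was not tested, and the fold changes come from tables scaled apart.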

How the results depend on the processing

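No called member changed direction under the alternatives run, but the medians of the complement list, which no test covers, changed sign: in sgCul3 from 0.09 to -0.26 without sgCul3 tumour 2 and -0.04 without sgGFP tumour 1, in sgKeap1 from 0.32 to -0.21 without sgKeap1 tumour 2, and in sgNrf2 from -0.18 to 0.13 at equal totals. In sgCul3, DESeq2 called 1 coagulation member (Cpb2) and 2 complement members (C4bp and C9), beside 7.10% of all genes. There the tumour number block called 1 complement member (C4bp, 1.78% of all genes), where limma called 0 of either (2.20%). In sgKeap1, DESeq2 called 4 complement members and edgeR 1 (16.4% and 7.35% of all genes), against 0 (7.82%). In that comparison the block called 4 coagulation members (Cpb2, Fga, Fgg and Klkb1) and 4 complement members (C4bp, Cfb, Mbl1 and Mbl2), where it called 13.6% of all genes. The correlations of same-numbered sgKeap1 and sgGFP tumours were 0.199, 0.0425 and -0.0941, and those of sgKeap1 and sgCul3 tumours 0.239, 0.518 and 0.0980. The labels do not say what the numbers mark, and the block leaves sgGFP tumour 4 out. With each tumour left out in turn, 0 to 3 coagulation members passed in sgKeap1, against 2, while 2.45% to 11.6% of all genes did. With each left out for the average of both guides, 1 to 4 coagulation members passed, beside 3.07% to 11.9% of all genes. There DESeq2 called 3 complement members and the block 4 (15.7% and 9.29% of all genes), against 0 (7.56%). In sgNrf2, DESeq2 called 7 coagulation and 6 complement members (18.9% of all genes). Equal totals and quantile scaling each called 1 coagulation member there, Cpb2 (8.84% and 6.95% of all genes), and the block 1 (Klkb1, 4.88%). The same-letter correlation was -0.000641. With each tumour left out there, 0 to 7 coagulation and 0 to 5 complement members passed, the most without control A, where 24.2% of all genes passed. The causes were not tested. Of the members not called, 15 of 39 in sgCul3, 16 of 37 in sgKeap1 and 11 of 36 in sgNrf2 changed sign under some alternative. In sgCul3 and sgKeap1, 3 and 7 of them passed under some alternative. The share of all genes that did the same was not counted, so these counts do not set the members apart. Such a count is not given for sgNrf2, whose alternatives include fits with 1 tumour left in a group. The sgNrf2 members were not steadier, since DESeq2 alone called 7 coagulation and 6 complement members there, C4bp and Masp1 included (18.9% of all genes). With 2 tumours a group in sgNrf2, and with 1 left where a tumour was left out and assumed to vary like the rest, an adjusted p over the threshold does not show that a gene did not differ. Depth limits C6 and C9, which lay under 25 normalised reads in the sgGFP tumours.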
